A study of Mus musculus with 20 samples.

Results

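Sox9, Sox5, Sox6, Trps1, Nkx3-2, Runx1 and Runx3 encode transcription factors that set or guard the identity of cartilage cells. They are 7 of the 54532 genes measured and were taken by gene name, with their FPKM (fragments per kilobase of gene length at a common depth) in every one of the 20 libraries. RNA came from chondrocytes of joint cartilage of 6-week-old mice, kept for 48 hours with an additive. The 4 groups held 5 libraries each: 2 µM GW3965, 20 µM 25-hydroxycholesterol-3-sulfate (25HC3S), 20 µM 25-hydroxycholesterol (25HC), and DMSO as Vehicle. GW3965 is a non-steroidal drug-like agonist of LXR, the sterol-sensing liver X receptors. 25HC, a cholesterol with an added hydroxyl, acts on LXR as well, and 25HC3S is the same sterol with a sulfate at its 3 position. The labels give no strain, sex or genotype, and they do not say whether the 5 libraries of a group are separate animals or separate cultures. The p-values therefore reflect variation among libraries that may be technical.

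SOX9 is the factor that a cell needs to become and remain a chondrocyte. It binds enhancers of the collagen and proteoglycan genes of cartilage and switches them on. SOX5 and SOX6 are close relatives of each other that lack an activating domain, and they sit beside SOX9 on many of the same enhancers and raise its effect. TRPS1 is a repressor with a GATA-type zinc finger, known from the human tricho-rhino-phalangeal syndrome, and acts in the growth plate. NKX3-2 is a homeobox repressor that keeps chondrocytes from maturing, in part by holding down Runx2. RUNX1 and RUNX3 bind DNA through a Runt domain together with CBFB. RUNX1 is known from blood formation and also from cartilage, and RUNX3 shares with RUNX2 a part in chondrocyte maturation.

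The libraries held 14653777 to 19365220 fragments in genes. Vehicle replicates 2, 3 and 4 and 25HC3S replicate 1 stood apart from the other 16. They had 237 to 1171 genes with exactly 1 fragment, against 1808 to 2057 in the 16, and 16346 to 19648 genes detected, against 20847 to 21607. Mitochondrial genes took 3.14% of fragments in 25HC3S replicate 1, 0.369, 4.07 and 3.60% in Vehicle replicates 2, 3 and 4 in that order, and 0.889 to 1.41% in the 16. The tests are given with and without these 4, a choice made after seeing the data, and without them Vehicle keeps 2 libraries and 25HC3S 4. All 8 chondrocyte markers were at 1 FPKM or more in every library, as the labelled cell type calls for. Genes listed as markers of other cell types were read too. Of 14 macrophage markers 13 were at 1 FPKM or more in every library, and all 7 fibroblast and synovial lining markers were. Over the 16, those 7 summed to 4302 to 5544 FPKM, the 8 chondrocyte markers to 3148 to 4738 FPKM and the macrophage markers to 658 to 1128 FPKM. Over all 20 libraries Col1a1, a fibroblast marker, had 2228 to 5358 FPKM and Col2a1, a chondrocyte marker, 1059 to 3501 FPKM. Which cells made this RNA cannot be told from RNA of whole cultures. The 8 markers of lymphocytes were below 1 FPKM in every library, with Cd2, Cd3e and Ms4a1 among those at 0.

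Of these factors Sox9 had by far the most RNA per base of gene, and Sox5 the least. Over the 16 libraries other than those 4, Sox9 had 22.7 ± 1.99 FPKM (SD, n = 16), a level above that of 85.5% of the 12752 genes tested. Trps1 had 9.59 ± 0.517 FPKM, Runx1 8.55 ± 0.947, Runx3 6.05 ± 0.505, Sox6 4.28 ± 0.286, Nkx3-2 3.57 ± 0.466 and Sox5 1.73 ± 0.187 FPKM over the same libraries. Sox5 lay above 15.9% of the genes tested. Trps1 and Runx1 overlapped over these libraries, as did Sox6 and Nkx3-2, and the other neighbours in the order did not. All 7 passed the filter on low values, which asked for 1 FPKM in at least 5 of 20 libraries.

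**Figure D1:**
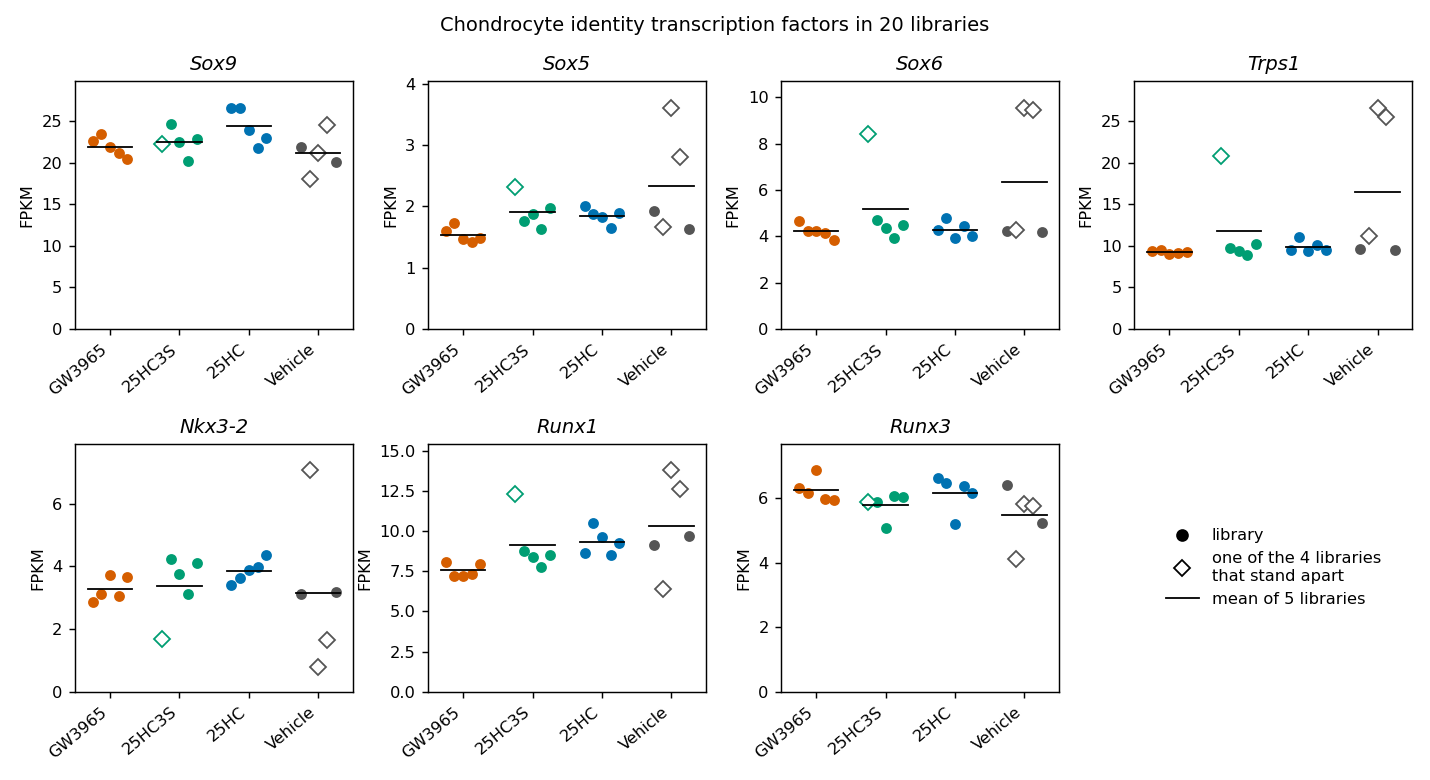
FPKM (linear axis from 0, one scale per gene) of the 7 factors in each library of GW3965, 25HC3S, 25HC and Vehicle. Dots are libraries, open diamonds are the 4 libraries that stand apart, and lines mark the mean of 5 libraries. The diamonds of Trps1 reach 26.7 FPKM in Vehicle and 20.8 FPKM in 25HC3S, while its dots lie between 8.91 and 11.0 FPKM.

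Sox9 lies on chromosome 11 (ENSMUSG00000000567, chr11:112782224-112787760 on GRCm38, plus strand), a short gene whose 3 exons hold 4135 bases. It had 22.6, 23.4, 21.9, 21.2 and 20.5 FPKM in GW3965 and 22.3, 24.6, 22.5, 20.2 and 22.8 FPKM in 25HC3S. In 25HC it had 26.7, 26.6, 24.0, 21.8 and 23.0 FPKM, against 21.9, 18.1, 21.2, 24.6 and 20.0 FPKM in Vehicle. The groups overlapped, the highest values were 25HC replicates 1 and 2, and the lowest was Vehicle replicate 2. Its coefficient of variation in Vehicle, 11.4%, was the smallest of the 7 factors.

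Sox5 and Sox6 are very large genes with small exonic parts. Sox5 spans chr6:143828425-144781977 (ENSMUSG00000041540, minus strand), of which 1.51% is exonic in 25 merged exons with 14376 bases. Sox6 spans chr7:115470872-116038796 (ENSMUSG00000051910, minus strand), of which 2.61% is exonic with 14832 bases. Both are thus read at far more bases than Sox9, so Sox5 still had 343 to 775 fragments per library. Of 7 genes annotated across Sox5, Sox5os1 on the opposite strand is the one that shares exonic bases with it, 1330 of them, and it had at most 0.0692 FPKM. The 2 genes annotated across Sox6 share none.

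Sox5 had 1.60, 1.73, 1.46, 1.42 and 1.48 FPKM in GW3965 and 2.31, 1.76, 1.87, 1.62 and 1.98 FPKM in 25HC3S. In 25HC its values were 2.00, 1.88, 1.82, 1.64 and 1.89 FPKM, against 1.92, 1.66, 3.61, 2.80 and 1.63 FPKM in Vehicle. GW3965 had the lowest mean, 1.54 ± 0.126 FPKM, and overlapped every other group, while Vehicle replicates 3 and 4 stood above all others. Sox6 had 4.66, 4.22, 4.22, 4.16 and 3.85 FPKM in GW3965 and 8.42, 4.72, 4.38, 3.92 and 4.50 FPKM in 25HC3S. In 25HC it had 4.28, 4.78, 3.93, 4.45 and 4.01 FPKM, against 4.23, 4.26, 9.56, 9.45 and 4.18 FPKM in Vehicle. All but 3 of the 20 libraries lay between 3.85 and 4.78 FPKM, and those 3 were Vehicle replicates 3 and 4 and 25HC3S replicate 1.

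The proportions within the SOX trio kept narrow ranges in the 16 libraries, with some of the other 4 outside them. Sox6 was 2.12 to 2.93 times Sox5 in the 16, per length, and 3.37 and 3.65 times in Vehicle replicate 4 and 25HC3S replicate 1. Sox9 was 4.79 to 6.22 times Sox6 in the 16, but 2.22, 2.60, 2.65 and 4.24 times in Vehicle replicates 3 and 4, 25HC3S replicate 1 and Vehicle replicate 2.

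Trps1 lies at chr15:50654752-50890463 (ENSMUSG00000038679, minus strand) with 13380 exonic bases in 13 merged exons. It had 9.42, 9.47, 9.05, 9.19 and 9.27 FPKM in GW3965 and 20.8, 9.76, 9.38, 8.91 and 10.2 FPKM in 25HC3S. In 25HC it had 9.49, 11.0, 9.43, 10.2 and 9.49 FPKM, against 9.59, 11.3, 26.7, 25.5 and 9.57 FPKM in Vehicle. The GW3965 libraries were the tightest set of any factor, with a coefficient of variation of 1.85%, and all lay below all 5 Vehicle libraries. The gap to Vehicle replicates 1 and 5 was small, since GW3965 reached 9.47 FPKM and those began at 9.57. How many of all genes separate in this way was not worked out. Mir1907, a microRNA gene within Trps1, shares 25 exonic bases with it, so the authors' counting could split a few fragments between them.

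Nkx3-2 is the shortest of the 7, at chr5:41761483-41764501 (ENSMUSG00000049691, minus strand), with 1718 exonic bases in 2 exons. It had 2.87, 3.11, 3.74, 3.05 and 3.65 FPKM in GW3965 and 1.68, 4.24, 3.76, 3.10 and 4.11 FPKM in 25HC3S. In 25HC it had 3.39, 3.63, 3.87, 3.99 and 4.36 FPKM, against 3.13, 7.07, 0.779, 1.63 and 3.18 FPKM in Vehicle. The highest and lowest values of all 20 libraries were both in Vehicle, in replicates 2 and 3, and its coefficient of variation there was 76.3%. It rested on few fragments, 90 to 149 in the 16 libraries and 20 to 175 over all 20.

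Runx1 and Runx3 are shown with their distal promoters, because these 2 genes share a stretch there that their relative Runx2 holds as well. Runx1 lies at chr16:92601466-92826149 (ENSMUSG00000022952, minus strand, 12025 exonic bases) and Runx3 at chr4:135120652-135177990 (ENSMUSG00000070691, plus strand, 5003 exonic bases). The windows are from RefSeq on GRCm38.p6 and run from 250 bases before to 50 after an annotated start, 5′ to 3′ on the gene's strand. Capitals mark letters that match a searched word: ACCACA or its other strand TGTGGT, the core that RUNX proteins bind, and CACTTA or TAAGTG for NKX3 proteins.
Runx1 distal window, chr16:92826025-92826324, minus strand: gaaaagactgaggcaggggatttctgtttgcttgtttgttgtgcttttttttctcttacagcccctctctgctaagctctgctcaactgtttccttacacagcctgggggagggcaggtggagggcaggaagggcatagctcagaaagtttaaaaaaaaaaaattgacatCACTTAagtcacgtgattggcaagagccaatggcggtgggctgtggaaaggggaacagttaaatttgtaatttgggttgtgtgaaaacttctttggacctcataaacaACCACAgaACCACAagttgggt
Runx2 distal window, chr17:44814578-44814877, minus strand: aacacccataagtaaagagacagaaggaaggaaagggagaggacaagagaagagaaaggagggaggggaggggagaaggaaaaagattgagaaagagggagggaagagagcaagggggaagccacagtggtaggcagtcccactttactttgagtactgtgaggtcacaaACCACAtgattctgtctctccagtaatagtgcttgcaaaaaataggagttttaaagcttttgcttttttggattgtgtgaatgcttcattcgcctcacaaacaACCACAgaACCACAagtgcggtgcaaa
Runx3 distal window, chr4:135120395-135120694, plus strand: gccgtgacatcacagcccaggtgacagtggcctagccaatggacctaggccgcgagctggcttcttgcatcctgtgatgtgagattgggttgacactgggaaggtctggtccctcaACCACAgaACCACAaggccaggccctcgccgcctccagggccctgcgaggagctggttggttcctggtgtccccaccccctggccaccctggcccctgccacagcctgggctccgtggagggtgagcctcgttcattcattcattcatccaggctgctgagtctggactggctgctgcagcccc

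Each of these windows holds the RUNX word as a close pair, ACCACAGAACCACA. Read on both strands, this run was in 4 of 32851 RefSeq promoter windows, or 0.0122%: those of Runx1, Runx2 and Runx3, and that of Gm16225, which overlaps the Runx3 window on the opposite strand. The single RUNX word was in 16.8% of windows. The run was picked because the Runx1 and Runx3 windows share it, so its presence in them was fixed in advance. A longer run is rarer by its length alone, so these shares cannot be compared. The pair begins at base 29 of the Runx1 transcript, at base 24 of the Runx2 transcript and at base -134 relative to the Runx3 start. The proximal window of Runx1, chr16:92697280-92697579, and that of Runx3, chr4:135152295-135152594, held none of the words searched.

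RefSeq windows were matched for 5 of the 7 factors, 12 windows in all, and for neither Sox9 nor Trps1. Over the 12, the RUNX word was in 4 and the NKX3 word in 4. The word bound by GATA-type zinc fingers, searched as AGATAA on both strands, was in 2. The word bound by SOX proteins, AACAAT on both strands, was in 1. In all windows, the NKX3 word was in 9.2%, the GATA word in 11.2% and the SOX word in 10.7%. The element on which liver X receptors bind with their partner RXR, searched on both strands as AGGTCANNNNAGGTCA, was in 0 of the 12 and in 5 of 32851. No 2 matches in these windows overlapped. A match describes letters only.

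Runx1 had 8.06, 7.24, 7.24, 7.31 and 7.97 FPKM in GW3965 and 12.3, 8.79, 8.40, 7.77 and 8.55 FPKM in 25HC3S. In 25HC it had 8.66, 10.5, 9.67, 8.53 and 9.27 FPKM, against 9.14, 6.43, 13.8, 12.6 and 9.68 FPKM in Vehicle. All 5 GW3965 libraries lay below all 5 of 25HC and below Vehicle replicates 1 and 5, while Vehicle replicate 2 lay below them. The share of all genes with such a separation was not worked out. An antisense gene, Gm26626, shares 106 exonic bases with Runx1 and had 0.208 to 1.84 FPKM. Whether counting used the strand is not given in the sources used here, so fragments of the shared bases cannot be assigned.

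Runx3 had 6.32, 6.16, 6.87, 5.99 and 5.94 FPKM in GW3965 and 5.89, 5.90, 5.09, 6.08 and 6.03 FPKM in 25HC3S. In 25HC it had 6.62, 6.49, 5.21, 6.38 and 6.15 FPKM, against 6.40, 4.12, 5.82, 5.77 and 5.25 FPKM in Vehicle. The groups overlapped, and Vehicle replicate 2 was lowest, as it was for Runx1. The ratio of Runx1 to Runx3, per length, was 1.06 to 1.34 in GW3965, 1.28 to 2.10 in 25HC3S, 1.31 to 1.86 in 25HC and 1.43 to 2.37 in Vehicle. Without the libraries that stood apart it was 1.28 to 1.65 in 25HC3S (n = 4) and 1.43 to 1.85 in Vehicle (n = 2).

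The first question was whether the LXR agonist changed these factors. With all 20 libraries, 0 of the 7 passed the test for GW3965 against Vehicle, where 6.46% of all genes did (limma on log2(FPKM + 1), adjusted over all genes, called under 0.05). At an unadjusted p under 0.05 there were 3 of the 7, against 31.9% of all genes. The difference was -0.63 ± 0.25 (log2, SE) for Trps1 (adjusted p = 0.113), -0.36 ± 0.14 for Runx1 (adjusted p = 0.107) and -0.35 ± 0.12 for Sox5 (adjusted p = 0.0809). Sox9, at 21.9 ± 1.16 FPKM in GW3965 and 21.2 ± 2.41 FPKM in Vehicle (SD, n = 5 each), differed by 0.05 ± 0.08.

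Without the 4 libraries that stood apart, Runx1 was the one factor called. It had 7.56 ± 0.413 FPKM in GW3965 (n = 5) and 9.41 ± 0.380 FPKM in Vehicle (n = 2), a difference of -0.28 ± 0.07 with a 95% interval of -0.43 to -0.14 (limma, adjusted p = 0.0168), where 7.77% of all genes were called. Trps1 then differed by -0.04 ± 0.06 and Sox6 by 0.00 ± 0.07, and Vehicle replicates 3 and 4, left out here, were the libraries with the highest Trps1 and Sox6. The calls also turned on single libraries. Replicates 1 and 5 are the Vehicle libraries that did not stand apart, so leaving out either one leaves Vehicle mostly with libraries that did. Runx1 was called without Vehicle replicate 2 alone (adjusted p = 0.0155), Sox5 without Vehicle replicate 1, 2 or 5 (adjusted p = 0.0401, 0.0425 and 0.0250) and Trps1 without Vehicle replicate 1 or 5 (adjusted p = 0.0383 and 0.0400). The share of all genes called also moved from 6.46%, and was 25.5% without Vehicle replicate 1, 8.31% without replicate 2 and 23.5% without replicate 5.

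**Figure D2:**
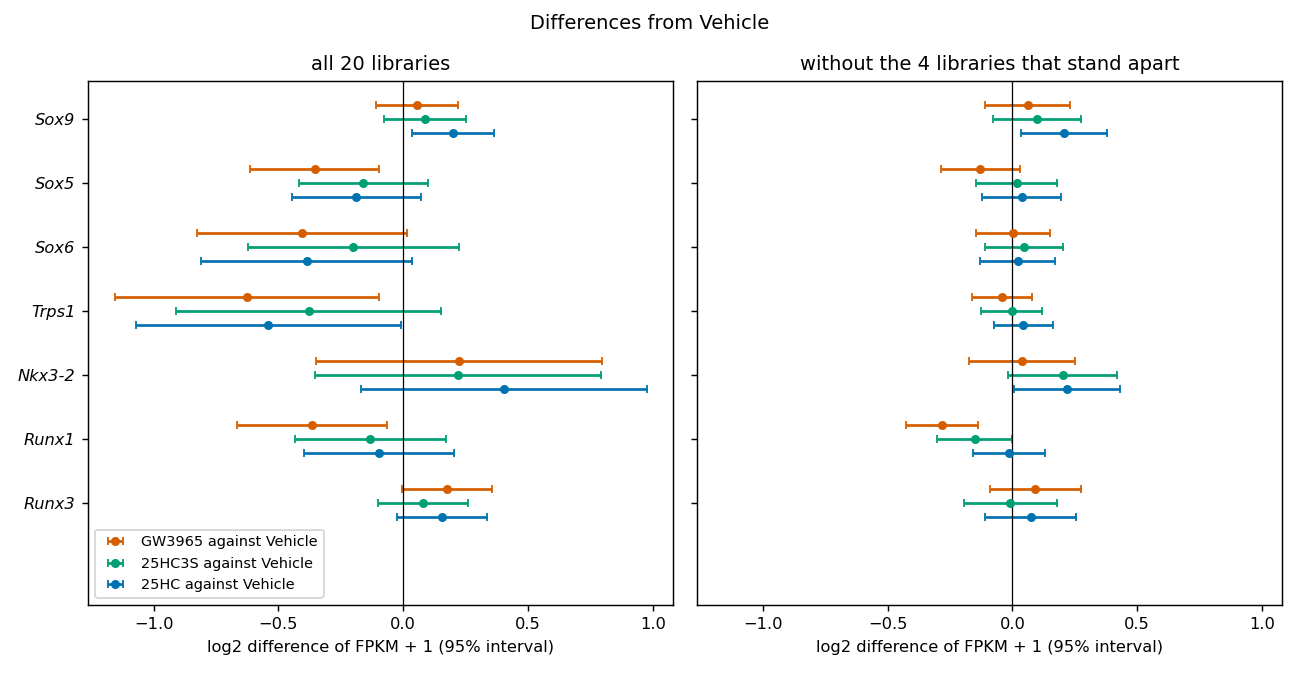
Log2 difference of FPKM + 1 (points, with 95% intervals) from Vehicle for GW3965, 25HC3S and 25HC, with all 20 libraries on the left and without the 4 that stand apart on the right. On the left Trps1 has the widest departures below 0, and on the right Runx1 in GW3965, at -0.28, is the one called difference.

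GW3965 and 25HC both act on the liver X receptors, at 2 µM and 20 µM here, and were set side by side after seeing the data. Runx1 had 7.56 ± 0.413 FPKM in GW3965 and 9.33 ± 0.803 FPKM in 25HC (SD, n = 5 each), and these libraries were all among the 16. The difference was -0.27 ± 0.14 with all 20 libraries in the fit (limma, adjusted p = 0.818), and 0 of the 7 were called, as were 1.74% of all genes. With the spread taken from the 16 libraries it was -0.27 ± 0.05 (adjusted p = 0.00227), where 13.1% of all genes were called, and with that of these 2 groups alone the adjusted p was 0.00858, where 11.2% were. Sox5 differed by -0.17 ± 0.06 (adjusted p = 0.0661) and Sox9 by -0.15 ± 0.06 (adjusted p = 0.143) in the fit of the 16. The doses differ, so compound and dose cannot be told apart.

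Runx1 is also expressed by macrophages and bone cells, whose markers are therefore given beside it. The summed level of the 14 macrophage markers was 970 to 1128 FPKM in GW3965, 775 to 1101 FPKM in 25HC and 470 to 1110 FPKM in Vehicle, where replicates 1 and 5 had 935 to 1110 FPKM. That of the 7 osteoblast markers was 139 to 154 FPKM in GW3965, 162 to 173 FPKM in 25HC and 101 to 144 FPKM in Vehicle, with 142.5 to 144.1 FPKM in replicates 1 and 5. Of those 7 markers 4 were at 1 FPKM or more in every library. The largest were Ibsp, at 61.7 to 99.1 FPKM, and Alpl, at 23.9 to 43.2 FPKM, while Phex and Dmp1 stayed below 1 FPKM. The part of macrophages or bone cells in the Runx1 values was not tested. In RNA from whole cultures, fewer cells of a type and less RNA per cell cannot be told apart.

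For 25HC3S against Vehicle, 0 of the 7 passed the test, where 1.61% of all genes did. Differences ran from -0.38 ± 0.25 for Trps1 to 0.22 ± 0.27 for Nkx3-2, with adjusted p from 0.428 to 0.662, and 0 of the 7 had an unadjusted p under 0.05. Without the libraries that stood apart, again 0 were called, where 3.95% of all genes were. Runx1 then had 8.38 ± 0.434 FPKM in 25HC3S (n = 4) and 9.41 ± 0.380 FPKM in Vehicle (n = 2), a difference of -0.15 ± 0.07 (adjusted p = 0.278).

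25HC against Vehicle gave 0 of the 7 called, and 0.0392% of all genes. That share was 20.9% without Vehicle replicate 1 and 16.4% without Vehicle replicate 5, again with 0 of the 7 called. Sox9 had 24.4 ± 2.17 FPKM in 25HC and 21.2 ± 2.41 FPKM in Vehicle (SD, n = 5 each), a difference of 0.20 ± 0.08 (limma, adjusted p = 0.147). It was 0.21 ± 0.08 without the libraries that stood apart (adjusted p = 0.844), where 0.0235% of genes were called. Sox9 and Trps1 were the 2 of the 7 with an unadjusted p under 0.05, as were 30.3% of all genes. Trps1 differed by -0.54 ± 0.25 with all libraries (adjusted p = 0.162) and by 0.04 ± 0.06 without those that stood apart.

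25HC3S and 25HC were given at the same dose and time and differ by the sulfate. None of the 7 was called (0 of 7, against 0.816% of all genes), and 0 had an unadjusted p under 0.05, against 7.12% of all genes. Sox9 had 22.5 ± 1.57 FPKM in 25HC3S and 24.4 ± 2.17 FPKM in 25HC (SD, n = 5 each), a log2 difference of -0.11 with a 95% interval of -0.28 to 0.05. The interval was -0.25 to 0.10 for Runx3 and -0.34 to 0.27 for Runx1. For Sox5 it was -0.23 to 0.29, for Sox6 -0.24 to 0.61, for Trps1 -0.37 to 0.69 and for Nkx3-2 -0.76 to 0.39. Without 25HC3S replicate 1 and the Vehicle libraries that stood apart, again 0 were called, where 7.18% of all genes were, and the widest difference was that of Runx1, -0.14 ± 0.05 (adjusted p = 0.150), with an interval of -0.25 to -0.02. In that fit the interval was -0.15 to 0.11 for Sox5, -0.10 to 0.14 for Sox6, -0.14 to 0.05 for Trps1, -0.19 to 0.15 for Nkx3-2 and -0.23 to 0.06 for Runx3.

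GW3965 and 25HC3S, also set side by side after seeing the data and at different doses, gave 0 of 7 called, against 4.63% of all genes. Leaving out the libraries that stood apart, it was again 0, against 17.9%. Runx1 differed by -0.13 ± 0.05 (adjusted p = 0.119) and Sox5 by -0.15 ± 0.06 (adjusted p = 0.110) in that fit. The comparisons with Vehicle share its libraries, so they are not independent of each other.

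In 3 of the 4 libraries that stood apart, the factors with long exonic sequence were high and the shortest one was low. Relative to the other libraries of its group, 25HC3S replicate 1 differed by 1.05 (log2) in Trps1, 0.81 in Sox6, 0.51 in Runx1 and 0.24 in Sox5, the genes with over 12000 exonic bases. Vehicle replicates 3 and 4 differed by 1.39 and 1.32 in Trps1, by 1.02 and 1.01 in Sox6, by 0.73 and 0.46 in Sox5 and by 0.51 and 0.39 in Runx1. Nkx3-2, with 1718 bases, differed by -0.83, -1.22 and -0.66 in 25HC3S replicate 1 and Vehicle replicates 3 and 4. Sox9 and Runx3, of middle length, stayed within -0.01 to 0.22 in these 3 libraries.

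Over all genes tested, the longest were also high in these 3 libraries. The 620 genes with more than 12000 bases had a median of 0.45 in 25HC3S replicate 1 and of 0.61 and 0.57 in Vehicle replicates 3 and 4. The 1404 genes with 1000 to 2000 bases had medians of -0.33, -0.49 and -0.46 in those libraries, and the 1324 genes with up to 1000 bases had -0.10, -0.43 and -0.28. In the 16 others the median of the longest genes lay between -0.06 and 0.05. Trps1 lay at the far end, with 98.7%, 98.5% and 98.6% of all genes tested below it in 25HC3S replicate 1 and Vehicle replicates 3 and 4.

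Vehicle replicate 2 was of another kind. Its longest genes had a median of 0.06, Trps1 differed by 0.21 and Sox6 by 0.01 there, but Nkx3-2 by 0.96, Runx1 by -0.49 and Runx3 by -0.41. Nkx3-2 in Vehicle therefore held replicates far from the rest on both sides.

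**Figure D3:**
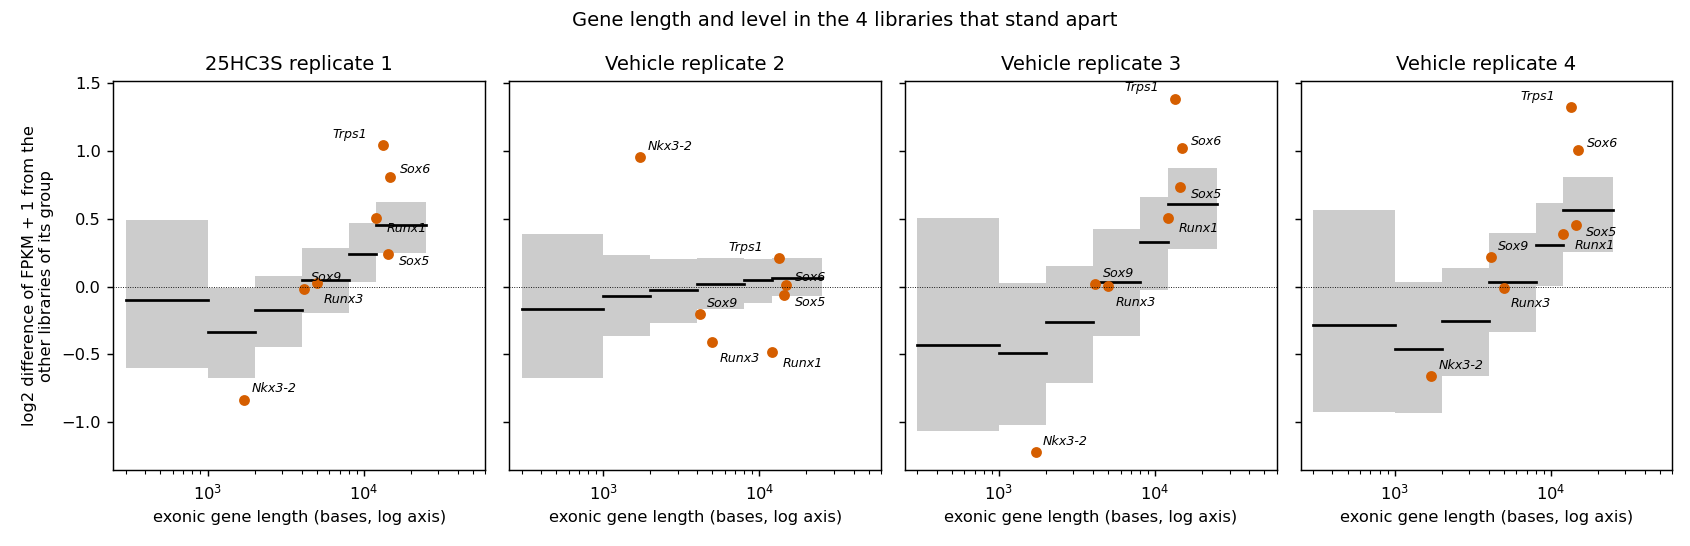
Log2 difference of FPKM + 1 of each factor (points) from the other libraries of its group against exonic gene length (bases, log axis) in 25HC3S replicate 1 and Vehicle replicates 2, 3 and 4. Grey boxes give the quartiles and black lines the medians of all genes tested in bins of length, with the outermost bins open-ended. In 3 of the 4 libraries Nkx3-2 is low and Trps1 highest. Trps1 and Sox6 lie above the upper quartile of their bin in those 3 libraries. Sox5 lies just below the lower quartile in 25HC3S replicate 1.

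Of 20 tested genes that SOX9 switches on in cartilage, from a list of 21 chosen with earlier results known, 1 passed the test with all 20 libraries. Epyc, which encodes a small proteoglycan of cartilage, was lower in GW3965 than in Vehicle (3.34 ± 0.512 against 5.48 ± 1.31 FPKM, difference -0.56 ± 0.12, adjusted p = 0.00904). It was also lower in 25HC3S, at 3.51 ± 0.474 FPKM (difference -0.51 ± 0.12, adjusted p = 0.0418). That is 1 of 20 targets in each comparison, where 6.46% of all genes were called for GW3965 and 1.61% for 25HC3S. Without the libraries that stood apart, both calls ended (-0.31 and -0.27, adjusted p = 0.159 and 0.270). The targets' median difference was 0.03 for GW3965, -0.06 for 25HC3S and 0.29 for 25HC against Vehicle, beside 0.02, 0.02 and 0.03 over all genes. Without the libraries that stood apart the targets' median was -0.18 for GW3965, -0.22 for 25HC3S and 0.08 for 25HC, beside 0.0071, 0.014 and 0.0024 over all genes. In the fit without those libraries, GW3965 had 2 targets higher, Col2a1 (0.49) and Col11a2 (0.40), and 1 lower, Matn1 (-0.55). 25HC3S had 3 lower, Cytl1 (-0.71), Matn1 (-0.55) and Col11a2 (-0.37), and 25HC had 0 of 20 called, where 7.77%, 3.95% and 0.0235% of all genes were called in the 3 comparisons.

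Between 25HC3S and 25HC, the SOX9 targets lay lower, and Sox9 itself, also lower at -0.11, did not pass the test. Whether Sox9 differed from its targets in this was not tested. With all libraries 0 of 20 targets were called, yet all 20 had negative differences, with a median of -0.35 beside 0.0049 over all genes. Without the libraries that stood apart 9 of 20 fell and 0 rose, where 7.18% of all genes were called, with a median of -0.27, again with 0 positive. Col9a2, a chain of collagen IX, had 4.13 ± 0.632 FPKM in 25HC3S (n = 4) and 6.74 ± 1.02 FPKM in 25HC (n = 5), a difference of -0.59 ± 0.11 (limma, adjusted p = 0.00380). Snorc, a membrane proteoglycan of cartilage, had 6.05 ± 1.01 FPKM in 25HC3S and 9.33 ± 0.370 FPKM in 25HC, a difference of -0.56 ± 0.10. Cytl1 differed by -0.52 ± 0.14, Col11a2 by -0.45 ± 0.07 and Col9a3 by -0.45 ± 0.09. The interval of Sox9 in that fit was -0.25 to 0.03. Summed macrophage markers were 658 to 798 FPKM in these 4 libraries of 25HC3S and 775 to 1101 FPKM in 25HC. Summed fibroblast and synovial lining markers were 4302 to 4537 FPKM in 25HC3S and 4780 to 5544 FPKM in 25HC. The osteoblast sum was 136.6 to 154.2 FPKM in 25HC3S and 161.8 to 172.6 FPKM in 25HC, and that of 5 adipocyte markers 14.8 to 16.7 FPKM in 25HC3S and 21.1 to 28.4 FPKM in 25HC. Their part in the values of the targets was not tested.

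Against 25HC, GW3965 split the same targets. With all libraries 0 of 20 were called. In the fit of the 16 libraries 8 fell and 2 rose, where 13.1% of all genes were called, with a median of -0.21 beside 0.0063 over all genes. Those that fell most were Snorc (-0.57 ± 0.09), Col27a1 (-0.50 ± 0.09), Matn3 (-0.47 ± 0.11), Matn4 (-0.46 ± 0.07) and Matn1 (-0.41 ± 0.10), the last 3 encoding matrilins that link the fibres of the matrix. The 2 that rose, named after their values were seen, were Col2a1, the main collagen of cartilage, at 2929 ± 296 FPKM in GW3965 and 2303 ± 147 FPKM in 25HC (0.34 ± 0.07), and Col11a2 (0.32 ± 0.06). Sox9 differed by -0.15 in the same fit, with an interval of -0.27 to -0.02 and an adjusted p of 0.143. The osteoblast sum was 139 to 154 FPKM in GW3965 and 162 to 173 FPKM in 25HC, and its part in these values was not tested.

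**Figure D4:**
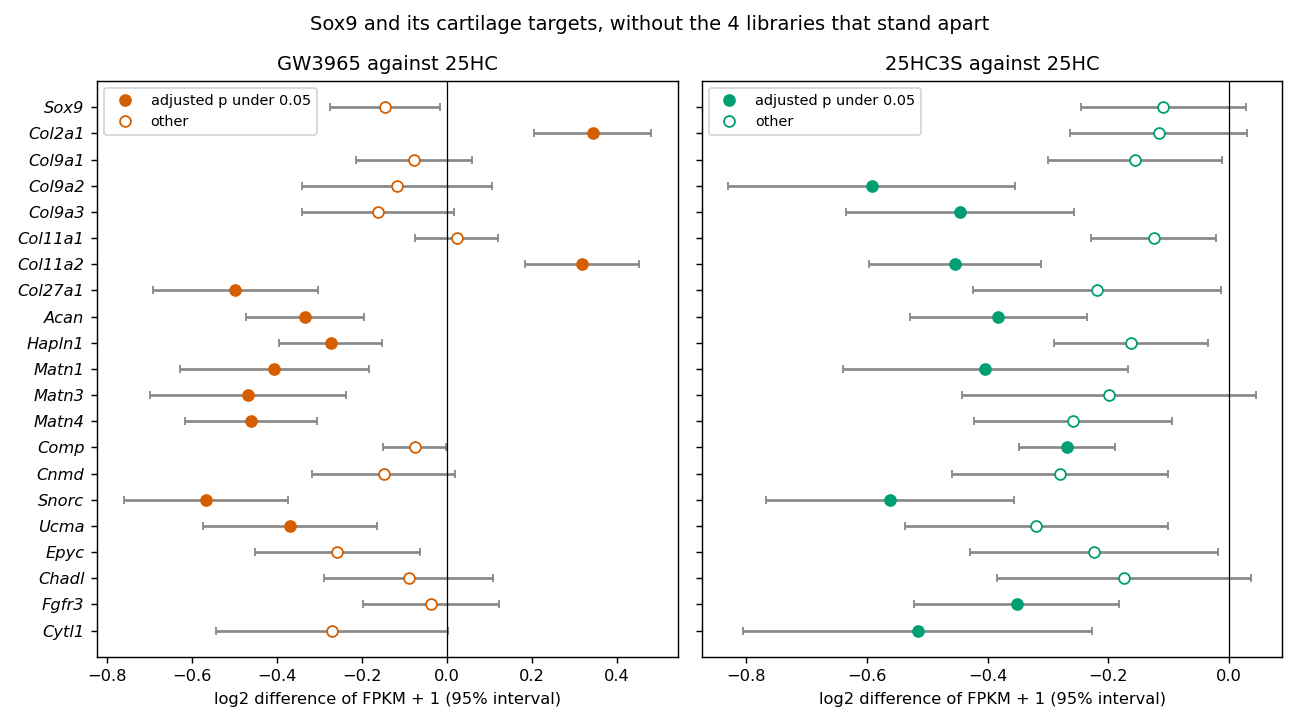
Log2 difference of FPKM + 1 with 95% intervals for Sox9 and 20 of its targets, for GW3965 against 25HC (left) and 25HC3S against 25HC (right, on its own scale), in the fit without the 4 libraries that stand apart. Filled points passed the test. All 20 targets lie below 0 for 25HC3S, whereas Col2a1 and Col11a2 are filled above 0 for GW3965, and Sox9 itself is open at -0.15 and -0.11.

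GW3965 against 25HC3S, in that fit, had 7 of 20 targets higher and 0 lower, where 17.9% of all genes were called, and 0 called with all libraries. The 5 with the widest differences were Col11a2 (0.77 ± 0.07), Col9a2 (0.48 ± 0.11), Col2a1 (0.46 ± 0.07), Fgfr3 (0.32 ± 0.08) and Col9a3 (0.28 ± 0.09). The collagen chains among them are built into the fibrils of cartilage, and Fgfr3 is a growth factor receptor that restrains chondrocyte division. The macrophage sum in 25HC3S, without replicate 1, was 658 to 798 FPKM, below the 970 to 1128 FPKM of GW3965, and its part in these values was not tested.

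Among 11 tested partners and co-factors of SOX9, Maf was the one called with all libraries, for 25HC3S against Vehicle, where 1.61% of all genes were. Maf encodes a bZIP factor that works with SOX9 on cartilage genes, and it had 22.3 ± 1.60 FPKM in 25HC3S and 28.8 ± 4.35 FPKM in Vehicle (-0.35 ± 0.08, adjusted p = 0.0290). In the fit of the 16 it had 21.6 ± 0.552 FPKM in 25HC3S, against 25.1 ± 0.800 FPKM in Vehicle (-0.21 ± 0.03, adjusted p = 0.00213). In the same fit it was also lower in 25HC3S than in 25HC (-0.26) and higher in GW3965 than in 25HC3S (0.21). Summed macrophage markers there were 658 to 798 FPKM in 25HC3S, 775 to 1101 FPKM in 25HC and 970 to 1128 FPKM in GW3965. In Vehicle replicates 1 and 5 that sum was 935 to 1110 FPKM. The part of macrophages in the Maf values was not tested. Without the libraries that stood apart the other partners called were Arid5b, Ctnnb1 and Wwp2. Arid5b was higher in 25HC3S than in 25HC by 0.21, and Wwp2 was higher in GW3965 than in 25HC3S by 0.15. Ctnnb1, which encodes beta-catenin, was lower in GW3965 than in 25HC (-0.11) and 25HC3S (-0.08). In that fit 3.95% of all genes were called for 25HC3S against Vehicle and 7.18% for 25HC3S against 25HC. For GW3965 against 25HC 13.1% were. For GW3965 against 25HC3S 17.9% were, where the 11 partners had 2 higher and 1 lower.

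Of 12 RUNX family members and partners, Cbfb, the DNA-binding partner of all RUNX proteins, was the one called with all libraries. It had 33.4 ± 1.23 FPKM in GW3965 and 44.4 ± 9.70 FPKM in Vehicle (-0.38 ± 0.10, adjusted p = 0.0365). The call ended without the libraries that stood apart, at -0.10 (adjusted p = 0.259). That fit called Hdac4, a deacetylase that restrains RUNX2, as higher (0.22) in GW3965 than in Vehicle, and Twist1 (-0.24), which binds RUNX2, as lower. Against 25HC, Twist1 differed by -0.25 in GW3965 and Wwtr1, which encodes the co-activator TAZ, by 0.13 in GW3965. Hdac4 was also higher in 25HC3S than in Vehicle, by 0.19. Runx2 was not called in any of the 6 comparisons by either fit. For GW3965 against Vehicle 6.46% of all genes were called with all libraries. Without those that stood apart the share was 7.77% there, 13.1% for GW3965 against 25HC and 3.95% for 25HC3S against Vehicle.

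Of 11 other SOX genes 4 were expressed enough to be tested, and 0 were called with all libraries. Without those that stood apart, Sox4, a SOX gene of progenitor cells, was lower than in Vehicle both in GW3965 (-0.15) and in 25HC3S (-0.20). Against 25HC it differed by -0.16 in GW3965 and by -0.21 in 25HC3S. It had 13.8 ± 0.529 FPKM in GW3965, 13.2 ± 0.529 FPKM in 25HC3S (n = 4), 15.5 ± 0.460 FPKM in 25HC and 15.4 ± 0.238 FPKM in Vehicle (n = 2). Of the 12 growth plate genes that act with Trps1 and Nkx3-2, 9 were tested and 0 were called with all libraries. Without those that stood apart Gli3, a Hedgehog effector, was lower in GW3965 than in Vehicle (-0.23), and Pth1r, the receptor of parathyroid hormone-related protein, was lower in GW3965 than in 25HC (-0.35). Gli3 (-0.27), Pth1r (-0.20) and Sox12 (-0.17) were lower in GW3965 than in 25HC3S. That is 2 of 9 growth plate genes and 1 of 4 SOX genes, where 17.9% of all genes were called. The share of all genes called in this fit was 7.77% for GW3965 and 3.95% for 25HC3S against Vehicle. Against 25HC it was 13.1% for GW3965 and 7.18% for 25HC3S.

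Trps1 and Sox6 varied together over the 20 libraries, with a Pearson correlation of log2 levels of 0.983, and of 0.682 over the 16. Sox5 correlated with Sox6 at 0.872 and with Trps1 at 0.888, and over the 16 at 0.277 and 0.485. Sox6 and Nkx3-2 correlated at -0.819 over the 20 and at 0.103 over the 16. These points share the libraries that stand apart.

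The genes most like each factor over the 20 libraries are given with Pearson's correlation of log2 levels over the 20 and then over the 16. For Trps1 they were Cdv3 (0.995, and 0.952 over the 16), Tmem263 (0.994, 0.740) and Erbin (0.993, 0.693). For Sox6 they were Fat4 (0.988, 0.720), Tmem263 (0.985, 0.666) and Trrap (0.984, 0.650), and for Sox5 Prps2 (0.950, 0.665), Capn6 (0.945, 0.672) and Enpp1 (0.942, 0.695). For Runx1 they were Colec12 (0.953, 0.809), Foxp1 (0.934, 0.757) and Zfp521 (0.923, 0.676). Sox9 was most like Maml1 (0.757, 0.633), Sulf2 (0.752, 0.761) and Pycr1 (0.731, 0.562), and Runx3 most like Dhx35 (0.844, 0.656), Slc35c2 (0.810, 0.586) and Haus7 (0.762, 0.540). For Nkx3-2 the genes were BC003965 (0.948, 0.229), Rrs1 (0.939, 0.210) and Dtnbp1 (0.939, 0.254).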

How the data were processed

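RNA of 20 libraries of mouse articular chondrocytes was sequenced, 5 in each of 4 groups named by the treatment on the labels. The authors deposited one table of FPKM per gene and library, with coordinates and gene lengths. The submitters' processing notes name CASAVA 1.8 and HISAT2 2.0.5. How fragments were counted, with or without strand, and on which build is not given in the sources used here. Coordinates of the 7 genes equal those of GENCODE M21 (GRCm38). Depth was worked out from the step of 1 fragment: 100% of values lay within 0.02 of a whole multiple. It covers counting error only.

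FPKM are not counts, so limma 3.58.1 in R 4.3.3 was run on log2(FPKM + 1), a scale that understates changes of low genes. The 12752 genes at 1 FPKM or more in at least 5 libraries were fitted together, one mean per group, with a trend, with two-sided tests adjusted over all of them by Benjamini-Hochberg. The steps were tested on simulated data, with independent noise of the same size in every library for a given gene. Those data held no libraries that stand apart, so they cannot show how the tests behave with such libraries. The 2 libraries of any pair in a group differed by more than sampling noise, with a chi-square per gene of at least 2.62. Each was counted as one library. The excess may be technical, so it does not show that the libraries are separate animals or cultures.

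The members and lists were chosen with earlier results of these data known. Of each list, genes past the threshold were named, at most 5 by size per comparison, and for each factor the 3 genes most correlated with it; one list gene is not reported here. The alternatives were a pseudocount of 0.1, no filter, other scalings, array quality weights, fits of 2 groups, a replicate block and leaving out libraries. Markers of endothelium, skeletal muscle and adipocytes summed to at most 6.07, 9.14 and 28.4 FPKM.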

Additional observations from a re-analysis of the deposited data

Results flagged for a closer look

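Of 28 groups of 5 libraries (7 factors in 4 groups), 4 had a library farther from its neighbour than Dixon's limit of 0.71 of the group's range; chance alone marks about 1 in 20 such groups. In 25HC3S, replicate 1 was the high one for Trps1, at 20.8 FPKM with the next library at 10.2 (0.889 of the range), for Sox6, at 8.42 FPKM with the next at 4.72 (0.823), and for Runx1, at 12.3 FPKM with the next at 8.79 (0.778). That is the library with few genes at 1 fragment and high values of long genes. Runx3 was low in 25HC3S replicate 3, at 5.09 FPKM, with the next library at 5.89 FPKM (0.805). In Vehicle, where 2 or 3 libraries were far from the rest, no single one passed this limit.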

How the results depend on the processing

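With all 20 libraries, 0 of 7 factors were called in each comparison, and this held with a pseudocount of 0.1, no filter, median-ratio scaling (the same factor of 1.008 in every library), total-fragment scaling and the replicate block. For GW3965 against Vehicle, 1 was called without the 4 libraries that stand apart and 1 with array quality weights (Runx1 both times, with 7.77% and 9.65% of all genes called), and 0 to 2 when 1 library was left out, with 450 to 3247 genes called. For GW3965 against 25HC, 1 was called without the 4 and 1 in the fit of those 2 groups (Runx1), and 2 with array quality weights (Runx1 and Sox5). The shares of all genes called in these fits were 13.1%, 11.2% and 13.1%, in that order.

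Uncalled differences changed sign. Without the 4, 25HC against Vehicle gave 0.037 for Sox5, 0.022 for Sox6 and 0.044 for Trps1; 25HC3S against Vehicle -0.0077 for Runx3, 0.017 for Sox5 and 0.046 for Sox6; GW3965 against Vehicle 0.0029 for Sox6; 25HC3S against 25HC -0.020 for Sox5 and -0.046 for Trps1; and GW3965 against 25HC3S -0.16 for Nkx3-2. With array quality weights, which gave those 4 libraries 0.04 to 0.16, 25HC against Vehicle gave 0.048 for Sox5, 25HC3S against Vehicle 0.027 for Sox5 and 0.039 for Sox6, 25HC3S against 25HC -0.021 for Sox5 and -0.025 for Trps1, GW3965 against 25HC 0.00021 for Sox6 and GW3965 against 25HC3S -0.17 for Nkx3-2. With total-fragment scaling, GW3965 gave -0.0036 for Runx3 against 25HC and -0.018 for Nkx3-2 against 25HC3S. When 1 library was left out, ranges crossed 0 for Runx1 in 25HC against Vehicle (-0.24 to 0.0099), for Nkx3-2 (-0.040 to 0.51) and Runx3 (-0.0018 to 0.13) in 25HC3S against Vehicle, for Nkx3-2 in GW3965 against Vehicle (-0.036 to 0.51), for Runx1 (-0.14 to 0.014), Sox5 (-0.020 to 0.064) and Trps1 (-0.046 to 0.24) in 25HC3S against 25HC, for Runx3 (-0.031 to 0.042) and Sox6 (-0.048 to 0.014) in GW3965 against 25HC, and for Nkx3-2 in GW3965 against 25HC3S (-0.16 to 0.079). Apart from the construction of each fit, the cause was not tested.

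No pairing by replicate number was seen: of 30 pairs with the same number, 4 deviated together with a correlation over 0.1, and 4 of 20 libraries were most like one of their own number. Deviations were taken from group means that include the 4 libraries that stand apart, so pairs with Vehicle or 25HC3S cannot decide this. Between 25HC and GW3965, which hold none of those 4, the correlations ran from -0.0034 to 0.0915. The labels do not say whether equal numbers belong together. The replicate block called 0 factors, and 544 genes in GW3965 against Vehicle, against 824 without it, and 1 against 5 in 25HC against Vehicle.

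Counts over all genes moved more. Without the 4, genes called went to 504 of 12752 for 25HC3S against Vehicle (205 with all), 916 for 25HC3S against 25HC (104), 1674 for GW3965 against 25HC (222), 2278 for GW3965 against 25HC3S (591) and 3 for 25HC against Vehicle (5). Array quality weights gave 769, 1053, 1676, 2372 and 16, and fits of 2 groups 23, 205, 1427, 1009 and 1, and 152 for GW3965 against Vehicle (824). Leaving out Vehicle replicate 1, 2 or 5 gave 3247, 1060 and 2998 for GW3965 against Vehicle, 622, 292 and 426 for 25HC3S against Vehicle, and 2659, 3 and 2085 for 25HC against Vehicle. Leaving out 25HC3S replicate 1 gave 433 for 25HC3S against Vehicle. Total-fragment scaling called 348 genes higher and 467 lower in GW3965 against Vehicle (445 and 379 as deposited), and 255 higher and 346 lower in GW3965 against 25HC3S (320 and 271). Nkx3-2, at 20 to 175 fragments, is the factor that depth limits most.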
